A study of Mus musculus with 6 samples.

Results

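Imprinted genes were examined in 6 brain RNA sequencing libraries of C57BL/6N mice at postnatal day 28. The members were 40 named genes from 21 imprinted clusters, matched by symbol in a table of 18491 genes, and all 40 were found. The samples formed 2 groups of 3, labelled wild type and Mettl5-/-. METTL5 is the enzyme that methylates an adenosine of the small-subunit ribosomal RNA. The labels call the tissue brain, name no region, and do not state that each library is a different animal. The p-values therefore reflect the spread among these libraries, part of which may be technical. The labels do not give the part of Mettl5 that was removed.

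Genomic imprinting silences 1 parental copy of a gene according to the parent it came from. Methylation set in the egg or sperm at a control region marks the copy, and KRAB zinc finger proteins such as ZFP57 and ZFP445 with their partner TRIM28 keep the mark after fertilisation. Imprinted genes lie in clusters that often hold paternally and maternally expressed members side by side. In brain they are known for roles in feeding, growth, maternal care and sleep, and several are most active in the hypothalamus. Of the 40 members, 22 were classed as paternally expressed, 12 as maternally expressed and 6 as dependent on tissue or isoform. These classes are textbook knowledge of mouse imprinting, and some hold in only certain tissues. A deposited value per gene sums both alleles, so the expressed allele was not measured here.

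Several clusters have members that start at the same place, which matters for how their values compare. Snurf and Snrpn are made from a single bicistronic transcript, and RefSeq gives both genes the same start on the minus strand. Peg3 and Usp29 are transcribed away from each other, with 96 bases between the gene ends. Peg10 and Sgce are arranged the same way, with 101 bases between them. The start windows of the first 2 pairs are shown here from RefSeq (GRCm38.p6), 250 bases before to 50 bases after the start, with every CpG in capitals, because each lies over the starts of both genes of its pair.
Snurf and Snrpn, chr7:60005150-60005449, minus strand: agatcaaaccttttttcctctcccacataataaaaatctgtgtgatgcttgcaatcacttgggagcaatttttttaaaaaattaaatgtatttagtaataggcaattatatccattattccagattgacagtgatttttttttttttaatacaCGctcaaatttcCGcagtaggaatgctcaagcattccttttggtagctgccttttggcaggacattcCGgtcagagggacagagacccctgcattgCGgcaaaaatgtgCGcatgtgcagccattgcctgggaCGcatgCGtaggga
Peg3, chr7:6730370-6730669, minus strand: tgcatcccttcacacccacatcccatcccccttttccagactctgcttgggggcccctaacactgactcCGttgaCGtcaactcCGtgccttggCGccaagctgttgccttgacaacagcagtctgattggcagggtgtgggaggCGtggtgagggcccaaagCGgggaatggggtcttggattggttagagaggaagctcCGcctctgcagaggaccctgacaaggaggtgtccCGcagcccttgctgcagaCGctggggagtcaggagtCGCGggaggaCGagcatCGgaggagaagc

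The Snurf and Snrpn window held 7 CpGs and the Peg3 window 13, while the window of Usp29 on the plus strand, chr7:6730333-6730632, held 17. RefSeq lists 3 further upstream starts for Snrpn, whose windows held 2, 3 and 4 CpGs. Start windows were found for 34 of the 40 members, as 54 windows with a median of 17 CpGs. Some of these overlap, as at Mest, Gnas and Begain, and each was counted. The 18228 windows of genes in the table had a median of 16. Windows of paternally expressed members had a median of 11 CpGs over 27 windows, and those of maternally expressed members 18 over 13. Those of the third class had 34 over 14, which come from 6 genes. The hexamer TGCCGC, the binding motif of ZFP57, was searched on both strands. It stood in 13 of the 54 member windows (24.1%), the Snurf and Snrpn window among them, and in 16.0% of all windows. The letters GCCATNTT, the core of the motif of the zinc finger factor YY1, stood in 3 member windows (5.56%) and in 6.76% of all windows. The Peg3 and Usp29 windows held neither motif. A match is a description of letters, not of a bound site.

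Expression is given in FPKM, a fragment count corrected for transcript length and library size, and values follow the order of replicates 1, 2 and 3. The per-library sums lay between 350726 and 377333, and absolute depth is unknown. Mettl5 held 4.78, 5.16 and 5.92 FPKM in the wild type and 2.79, 3.81 and 2.40 FPKM in the knockout. Every knockout library lay under every wild-type library, with transcript still present (limma adjusted p = 0.79).

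The libraries differed in markers of brain regions, and this bears on members that are regional. A list level is the median over its tested genes of log2(FPKM + 1) minus the wild-type mean. Hypothalamic neuron markers stood at -0.022, 0.85 and -0.93 in the wild type and at 0.42, -0.27 and -1.08 in the knockout. Replicate 3 was the lowest library of both genotypes. Cerebellar neuron markers stood at 2.86 in knockout library 2, against -0.48 to 0.40 in the other libraries. Thalamic neuron markers stood at -1.25 in knockout library 3, against -0.35 to 0.21 elsewhere. Oligodendrocyte markers stood at -0.32, -0.31 and -1.69 in the knockout and at -0.10, 0.14 and -0.045 in the wild type. Fewer cells of a type and less RNA per cell cannot be told apart in these bulk samples.

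The listed imprinted genes were well represented in the brain libraries. Their median of mean FPKM was 14.8 over the 40 members, against 5.16 over the whole table. The highest was Gnas, with a mean of 894 FPKM, followed by Snrpn at 426 and Nap1l5 at 298. In all, 7 members averaged 100 FPKM or more (17.5%), against 3.41% of the table. At the other end, 6 members averaged under 1 FPKM and were not tested singly: Mkrn3, Asb4, Calcr, Slc38a4, Slc22a18 and Phlda2. Phlda2, a growth-restraining gene of the placenta, had 0.28 FPKM in wild-type library 1 and was listed at 0 in the other 5 libraries. Paternally expressed members had a median level of 17.1 FPKM, maternally expressed members 8.71 FPKM, and the third class 49.1 FPKM. These levels describe the chosen members only. Of 30 other imprinted genes in the table, 18 averaged 1 FPKM or more, against 34 of the 40 members and 12885 of all 18491 genes.

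**Figure D1:**
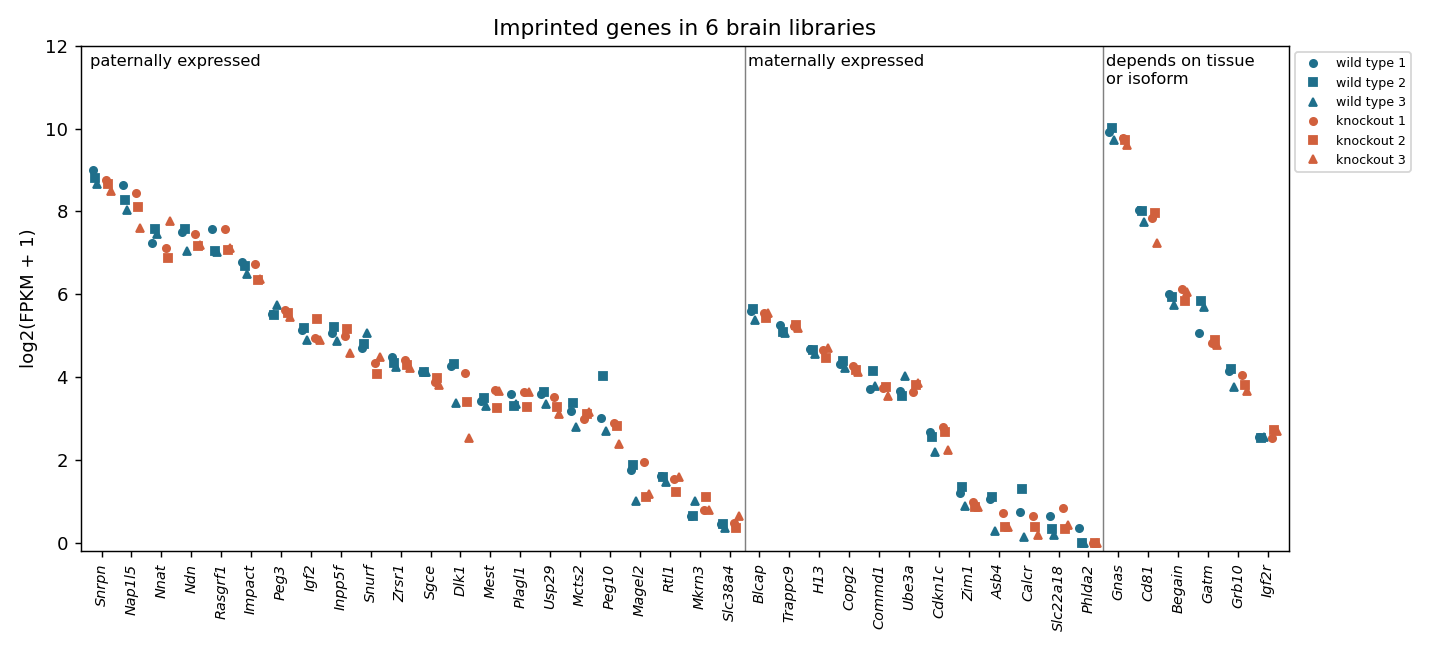
Level of each of the 40 imprinted genes in each library, as log2(FPKM + 1), in 3 classes of expressed allele and ordered by mean level. Blue symbols are wild-type and orange symbols knockout libraries, with a circle, square or triangle for replicates 1, 2 and 3. Gnas lies at the top and Phlda2 at the bottom.

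The comparison of genotypes asked whether imprinted transcripts differed in the Mettl5 knockout brain. No imprinted gene passed the test: 0 of the 34 tested members, against 0% of all 12885 genes tested, had a limma adjusted p under 0.05 after Benjamini-Hochberg adjustment. The lowest adjusted p of a member was 0.79. In 25 of the 34 tested members the knockout estimate was lower (73.5%), against 50.9% of all genes tested. The median log2 fold change was -0.13 over the tested members and -0.0032 over all genes tested. Leaving out knockout library 3 gave -0.068, and leaving out knockout library 2 gave -0.079. For the wild type it was -0.078 without library 2 and -0.21 without library 3. Without any filter all 40 members entered, 28 were lower, and the median was -0.12. These counts describe the members, which were chosen with earlier results of these data known, and they are no test of the group.

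Snurf, Gatm and Sgce, 3 members in all and lower in the knockout, had an unadjusted limma p under 0.05 (8.82%), against 3.69% of all genes tested on the lower side. On the higher side there were 0 members, against 2.37%. The same 3 members had no overlap between the genotypes with the knockout lower (8.82%, against 6.43% of all genes), and 0 members had none with the knockout higher (against 5.48%). Same-numbered libraries deviated together, so pairs were also compared. In 16 of 34 members the knockout was lower in all 3 pairs (47.1%, against 20.5% of all genes), and 1 member, Cdkn1c, was higher in all 3 pairs (2.94%, against 19.5%). With the replicate number as a block, 0 members passed an adjusted p of 0.05 in limma, as did 0% of all genes. In that fit 8 members were lower at an unadjusted p under 0.05 (23.5%, against 8.22% of all genes) and 0 were higher (against 6.08%). The 8 were Snurf, Gatm, Dlk1, Nap1l5, Sgce, Snrpn, Gnas and Usp29. Members share libraries and in part regions of expression, so these counts are not counts of independent genes.

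**Figure D2:**
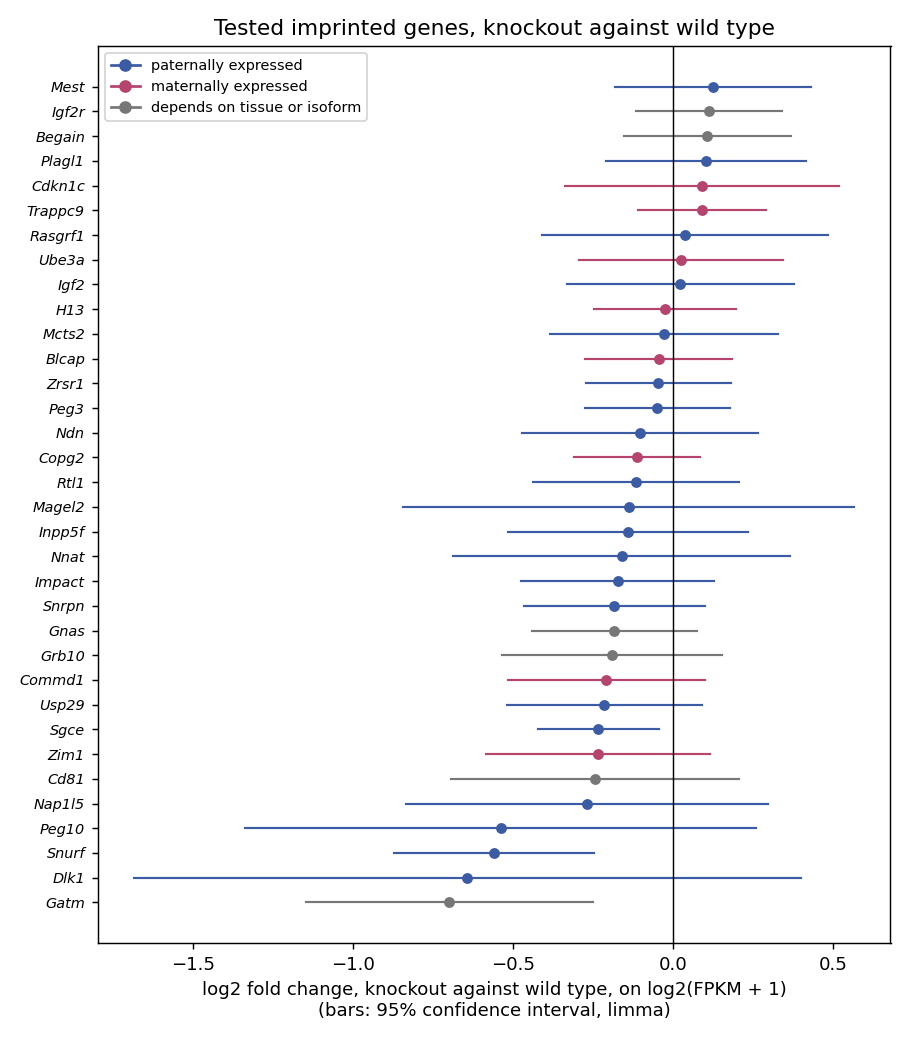
Log2 fold change of each of the 34 tested imprinted genes, knockout against wild type, on the log2(FPKM + 1) scale, with the 95% confidence interval of limma (3 libraries a genotype). Colours mark the expressed allele. The intervals of Gatm, Snurf and Sgce lie below 0, and none passed after adjustment over all genes.

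The Prader-Willi and Angelman cluster on chromosome 7 holds 5 paternally expressed members and the maternally expressed Ube3a. Its paternal genes are lost in Prader-Willi syndrome, and maternal UBE3A is lost in Angelman syndrome. Snurf (chr7:59982495-60005199), which encodes a small protein from the upstream reading frame of the shared transcript, held 25.1, 26.9 and 32.2 FPKM in the wild type and 19.1, 15.9 and 21.3 FPKM in the knockout. The groups did not overlap. Means were 28.1 ± 3.7 and 18.8 ± 2.7 FPKM (SD, n = 3 each), and the log2 fold change was -0.56 (SE 0.13, limma adjusted p = 0.79). The 2-sided exact permutation test gave p = 0.1, the smallest that 3 against 3 allows. Leaving out each library in turn gave log2 fold changes of -0.65 to -0.45.

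Snrpn (chr7:59982495-60450177), the gene of a core spliceosomal protein of neurons, held 509, 449 and 403 FPKM in the wild type and 435, 405 and 357 FPKM in the knockout. The groups overlapped, and the knockout was lower in each of the 3 pairs. Its log2 fold change was -0.18 (SE 0.12), which became -0.097 with wild-type library 1 left out and -0.11 with knockout library 3 left out. The split of reads between these genes is uncertain, since every 50-base window of the Snurf transcript in GENCODE M21 also lies in Snrpn (167 of 167 windows). Of the Snrpn windows, 7.93% lie in Snurf. The sum of both genes was 534, 476 and 435 FPKM in the wild type and 454, 421 and 378 FPKM in the knockout, and these overlapped (exact permutation p = 0.2). The ratio of Snurf to Snrpn was 0.063 ± 0.016 in the wild type and 0.048 ± 0.011 in the knockout (SD, n = 3 each; exact permutation p = 0.2).

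Ndn (chr7:62348277-62349928), a MAGE family gene known as a growth suppressor in neurons, had overlapping groups, with means of 167 ± 32 and 154 ± 17 FPKM (SD, n = 3 each). Ube3a (chr7:59228750-59310837), a ubiquitin ligase expressed from the maternal copy in neurons, held 11.6, 10.7 and 15.3 FPKM in the wild type and 11.5, 13.1 and 13.5 FPKM in the knockout. It averaged 12.5 ± 2.4 and 12.7 ± 1.1 FPKM (SD, n = 3 each), a difference smaller than the spread. The interval of its log2 fold change was -0.29 to 0.34. Mkrn3, a makorin gene whose human counterpart restrains puberty onset, ranged from 0.56 to 1.16 FPKM. Magel2, another MAGE family gene, is described with the hypothalamic markers.

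**Figure D3:**
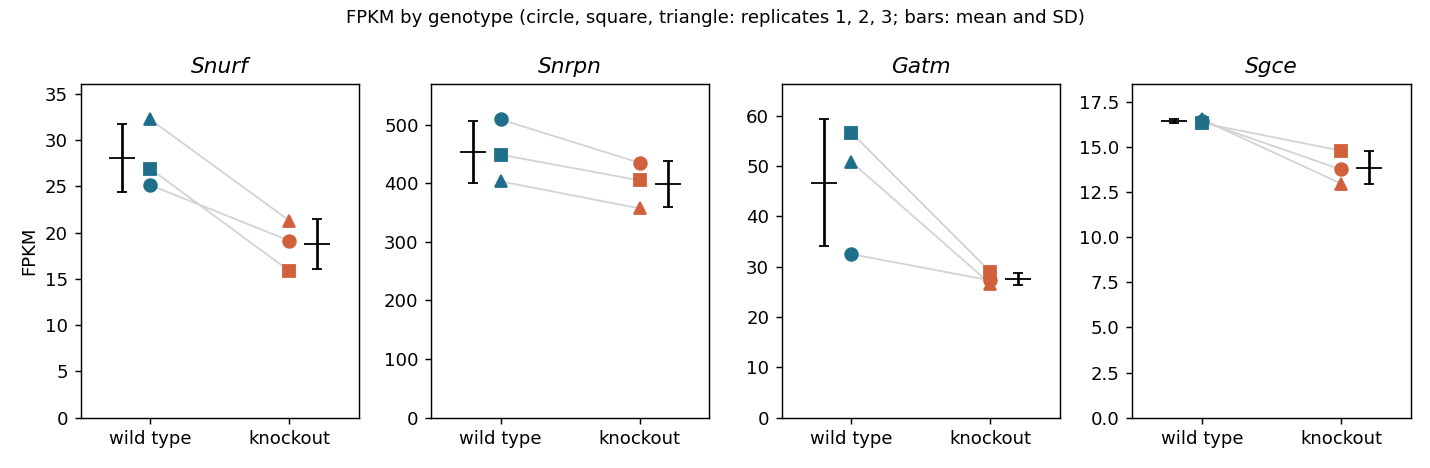
FPKM of Snurf, Snrpn, Gatm and Sgce in each library by genotype, on linear axes from 0. Symbols mark replicates 1, 2 and 3, grey lines join libraries of the same number, and bars give the mean and SD of 3 libraries. Snurf, Gatm and Sgce do not overlap between genotypes, and Snrpn does.

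The Peg10 and Sgce pair on chromosome 6 was lower in the knockout in all 3 pairs of libraries. Sgce (chr6:4674350-4747204) encodes epsilon-sarcoglycan, which is mutated in human myoclonus dystonia. It held 16.4, 16.3 and 16.5 FPKM in the wild type and 13.7, 14.8 and 12.96 FPKM in the knockout. The groups did not overlap, and the SD of the wild-type values was 0.10 FPKM. The log2 fold change was -0.23 (SE 0.082, limma adjusted p = 0.79; exact permutation p = 0.1). Peg10 (chr6:4747306-4760517), derived from a retrotransposon, held 7.10, 15.18 and 5.45 FPKM in the wild type and 6.42, 6.07 and 4.25 FPKM in the knockout. Wild-type library 2 stood above all others, and the log2 fold change of -0.54 (SE 0.34) was -0.15 without it and -0.82 without wild-type library 3. The ratio of Peg10 to Sgce was 0.93 in that library and 0.33 to 0.47 in the other 5. The maternally expressed genes of the same cluster, Asb4 and Calcr, were low and are described with the hypothalamic markers.

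In the Peg3 cluster on chromosome 7, all 3 members overlapped between the genotypes. Peg3 (chr7:6703892-6730462), a zinc finger gene with roles in maternal behaviour in mice, held 45.3, 44.2 and 52.2 FPKM in the wild type and 48.2, 45.7 and 42.7 FPKM in the knockout. The 95% interval of its log2 fold change was -0.27 to 0.18. Usp29 (chr7:6730559-6967220), a ubiquitin-specific protease gene, held 11.04, 11.4 and 9.12 FPKM in the wild type and 10.4, 8.77 and 7.67 FPKM in the knockout. It was lower in each pair, and its log2 fold change was -0.21 (SE 0.13). It was -0.12 without knockout library 3 and -0.32 without knockout library 1. The ratio of Peg3 to Usp29 was 4.57 ± 1.0 in the wild type and 5.14 ± 0.47 in the knockout (SD, n = 3 each; exact permutation p = 0.4). Zim1, the maternally expressed zinc finger gene of the cluster, held 1.28, 1.52 and 0.85 FPKM in the wild type and 0.97, 0.82 and 0.82 FPKM in the knockout. Its log2 fold change of -0.23 was -0.14 without wild-type library 2 and -0.36 without wild-type library 3.

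Gatm (chr2:122594473-122611277) had the most negative log2 fold change of the tested members. It encodes the first enzyme of creatine synthesis and is imprinted in the mouse placenta. It held 32.5, 56.7 and 50.8 FPKM in the wild type and 27.3, 29.0 and 26.6 FPKM in the knockout. The groups did not overlap, and wild-type library 1 lay nearest to the knockout. Means were 46.7 ± 13 and 27.6 ± 1.2 FPKM (SD, n = 3 each), with a log2 fold change of -0.70 (SE 0.19, limma adjusted p = 0.79; exact permutation p = 0.1). It ranged from -0.93 without wild-type library 1 to -0.54 without wild-type library 2. Gatm is also expressed by oligodendrocytes, whose markers were lower in the knockout too. The oligodendrocyte enzyme gene Ugt8a held 18.7, 54.4 and 44.5 FPKM in the wild type and 18.1, 19.6 and 10.4 FPKM in the knockout, with the same library low in the wild type. Other markers did not share that order: the myelin genes Mobp, at 372, 312 and 293 FPKM, and Mal, at 409, 310 and 323 FPKM, were highest in wild-type library 1. Mobp and Mal were picked after their values were seen. All 12 oligodendrocyte markers were tested and lower, 9 of them without overlap (75%, against 6.43% of all genes tested). Their summed level was 6734 to 7974 FPKM in the wild type and 2222 to 5946 FPKM in the knockout, and none was at 0. The astrocyte water channel gene Aqp4 held 21.2, 43.0 and 38.5 FPKM in the wild type and 17.2, 28.4 and 18.3 FPKM in the knockout. Astrocyte markers as a list did not share this: 6 of 9 were lower and 3 higher, with a median of -0.054, and the glutamate transporter gene Slc1a3 had a log2 fold change of 0.33. Without knockout library 3, where oligodendrocyte markers were lowest, the log2 fold change of Gatm was -0.67. The oligodendrocyte list was also lower in knockout libraries 1 and 2, at -0.32 and -0.31, against -0.10 to 0.14 in the wild type. The part of these cell types in the Gatm values was not tested.

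Members known for hypothalamic expression varied widely within each genotype. These genes and the neuropeptides beside them were picked after their values were seen. Magel2 (chr7:62376979-62381640), which takes part in protein sorting at endosomes, held 2.40, 2.65 and 1.01 FPKM in the wild type and 2.85, 1.14 and 1.27 FPKM in the knockout. Wild-type libraries 1 and 2 and knockout library 1 were high in this gene. Dlk1 (chr12:109452485-109463336), a membrane protein of the Notch ligand family, held 18.2, 19.03 and 9.31 FPKM in the wild type and 16.2, 9.59 and 4.72 FPKM in the knockout. The same 3 libraries were highest. Its log2 fold change was -0.64 (SE 0.44), -0.23 without knockout library 3 and -1.0 without knockout library 1. With the replicate block the unadjusted limma p was 0.00871 and the adjusted p 0.288.

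Asb4, an ankyrin repeat gene of the hypothalamus, held 1.07, 1.15 and 0.22 FPKM in the wild type and 0.64, 0.30 and 0.30 FPKM in the knockout. Calcr, the calcitonin receptor gene, held 0.68, 1.45 and 0.09 FPKM in the wild type and 0.55, 0.30 and 0.14 FPKM in the knockout. Both were again highest in wild-type libraries 1 and 2 and knockout library 1. Among the markers, the melanin-concentrating hormone gene Pmch held 53.8, 42.4 and 1.23 FPKM in the wild type and 64.9, 16.9 and 0.07 FPKM in the knockout. Hcrt, which encodes the orexin precursor, held 12.4, 8.43 and 0.24 FPKM in the wild type and 13.1, 5.25 and 0 FPKM in the knockout. The same 3 libraries were highest in both neuropeptide genes, and also in Ghrh, Gal, Trh, Oxt, Cartpt, Otp, Sim1 and Nr5a1. Of these, Ghrh, Otp, Sim1 and Nr5a1 averaged under 1 FPKM. The hypothalamic markers Agrp, Pomc, Avp, Hdc, Npy and Crh did not share that order. Npy was highest in knockout library 3, at 106 FPKM, and lowest in knockout library 1, at 80.8 FPKM. Crh held 2.38, 5.24 and 3.08 FPKM in the wild type and 2.69, 2.71 and 3.13 FPKM in the knockout. Of the 16 hypothalamic markers, 10 were tested, 9 were lower and all overlapped between the genotypes, and Hcrt and Nr5a1 were at 0 in some libraries. Their summed level was 107 to 245 FPKM in the wild type and 124 to 202 FPKM in the knockout. How far the hypothalamic content of a library sets the values of Magel2, Dlk1, Asb4 and Calcr was not tested.

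**Figure D4:**
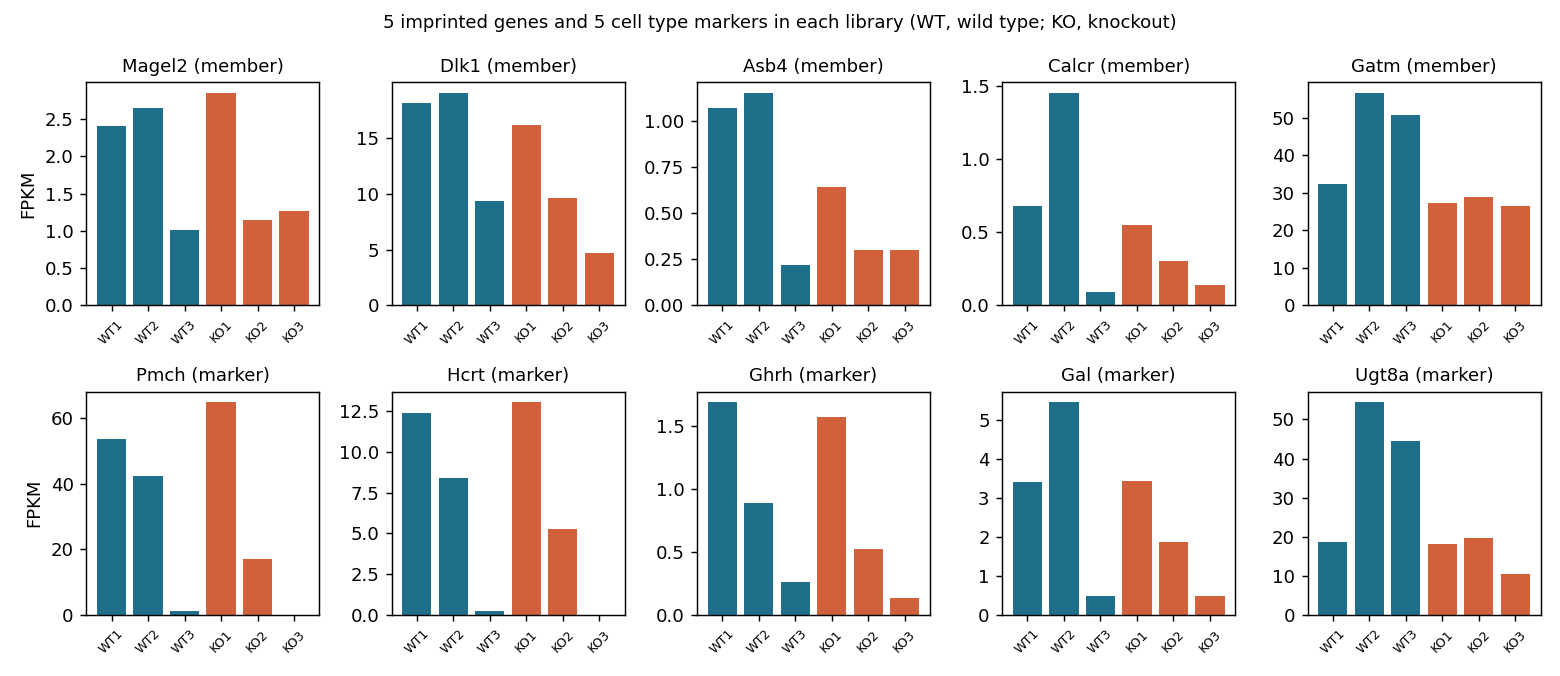
FPKM in each library of 5 imprinted genes (top) and of 5 cell type markers (bottom), as bars from 0 with 1 bar a library, blue for wild type and orange for knockout. Magel2, Dlk1, Asb4 and Calcr are highest in wild-type libraries 1 and 2 and knockout library 1, as are the hypothalamic Pmch, Hcrt and Ghrh. The genes shown were picked after their values were seen, and the hypothalamic markers Npy and Crh, not shown, did not share that order. Gatm and the oligodendrocyte gene Ugt8a are highest in wild-type libraries 2 and 3.

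The Dlk1 and Dio3 cluster on chromosome 12 holds 2 further members. Rtl1, a retrotransposon-derived gene needed in placenta, ranged from 1.32 to 2.07 FPKM. Begain (chr12:109032181-109068242), which encodes a partner of the postsynaptic scaffold PSD-95, held 63.2, 60.1 and 52.9 FPKM in the wild type and 69.2, 56.0 and 65.0 FPKM in the knockout. The groups overlapped in both genes.

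Gnas and Nap1l5 were among the most abundant members and were lower in every pair of libraries. Gnas (chr2:174284320-174346744) encodes the stimulatory G protein alpha subunit and related products of both alleles. It held 969, 1041 and 844 FPKM in the wild type and 883, 851 and 773 FPKM in the knockout. The groups overlapped, with a log2 fold change of -0.18 (SE 0.11) that was -0.27 without wild-type library 3 and -0.12 without wild-type library 2. Nap1l5 (chr6:58905233-58907126), a retrogene related to histone chaperones, lies within Herc3 and held 401, 311 and 260 FPKM in the wild type and 347, 277 and 192 FPKM in the knockout. Replicate 1 was the highest and replicate 3 the lowest library of both genotypes, and the groups overlapped. Its log2 fold change of -0.27 (SE 0.24) had an SE of 0.077 with the replicate block, and it was -0.039 without knockout library 3 and -0.47 without knockout library 1. For the wild type it was -0.11 without library 1 and -0.42 without library 3. Its host Herc3 held 31.3, 27.5 and 33.0 FPKM in the wild type and 33.0, 30.7 and 36.2 FPKM in the knockout.

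Other nested or overlapping pairs showed no separation of the genotypes. Nnat, which encodes a membrane proteolipid of the endoplasmic reticulum, lies within Blcap on chromosome 2. It held 150, 189 and 175 FPKM in the wild type and 138, 117 and 219 FPKM in the knockout, with the highest and the lowest value both in the knockout. Blcap, maternally expressed in brain, held 47.5, 49.4 and 40.7 FPKM in the wild type and 45.7, 41.9 and 45.4 FPKM in the knockout. The ratio of Nnat to Blcap was 3.76 ± 0.57 and 3.54 ± 1.1 (SD, n = 3 each; exact permutation p = 0.8).

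Mcts2, a retrogene copy of the translation factor gene Mcts1, lies within H13 on chromosome 2. It held 8.05, 9.45 and 5.94 FPKM in the wild type and 6.98, 7.62 and 7.98 FPKM in the knockout, with overlap. H13, the signal peptide peptidase gene, held 24.7, 24.2 and 22.6 FPKM in the wild type and 24.2, 21.0 and 25.2 FPKM in the knockout, and its direction turned with scaling to a common sum (0.0017). Zrsr1, a splicing factor retrogene within Commd1 on chromosome 11, held 21.3, 19.2 and 17.9 FPKM in the wild type and 20.3, 18.5 and 17.6 FPKM in the knockout. Commd1, which acts in copper handling, held 12.2, 16.7 and 12.8 FPKM in the wild type and 12.3, 12.4 and 10.6 FPKM in the knockout. Its log2 fold change of -0.21 was -0.076 without wild-type library 2. All 4 genes overlapped between the genotypes.

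Mest, of the alpha/beta hydrolase fold, overlaps the 3' end of Copg2 on the opposite strand of chromosome 6. It held 9.79, 10.3 and 8.87 FPKM in the wild type and 11.78, 8.60 and 11.7 FPKM in the knockout. Copg2, a coatomer subunit gene, held 18.96, 19.8 and 17.8 FPKM in the wild type and 18.4, 17.1 and 16.5 FPKM in the knockout. Both overlapped between the genotypes. Of 50-base windows, 31.1% in Mest and 22.1% in Copg2 lie in the partner on the opposite strand, and no strand setting is stated, so reads in the overlap cannot be assigned with certainty.

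Growth-related members overlapped between the genotypes. Igf2 (chr7:142650768-142666816), a fetal growth factor that in adult brain comes mainly from meninges and choroid plexus, held 33.9, 35.1 and 28.6 FPKM in the wild type and 29.9, 41.4 and 28.8 FPKM in the knockout. Knockout library 2 was the highest in Igf2, and it was also the highest in the list of leptomeningeal and fibroblast genes, at 0.28 against -0.092 to 0.14 in the others. Of that list 11 of 15 genes were tested, 3 lower and 8 higher, and their summed level was 61.6 to 80.3 FPKM in the wild type and 54.9 to 78.6 FPKM in the knockout. Choroid plexus markers, by contrast, were all lower in the knockout (10 of 10 tested). Of these, 4 were without overlap (40%, against 6.43% of all genes tested). The summed level of the choroid plexus list was 523 to 669 FPKM in the wild type and 340 to 559 FPKM in the knockout. None of these markers was at 0, and the part of these tissues in the Igf2 values was not tested. Of the 50-base windows of Igf2, 68.3% also lie in Gm49394, a gene model of GENCODE M21. Gm49394 is absent from the deposited table. Whether the submitters' annotation held it is not stated, so any effect on the Igf2 values is unknown.

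Igf2r (chr17:12682406-12769706), the receptor that clears IGF2 and sorts lysosomal enzymes, held 4.89, 4.72 and 4.82 FPKM in the wild type and 4.77, 5.6 and 5.5 FPKM in the knockout, with overlap. Grb10, an adaptor that restrains insulin and IGF receptors and is paternally expressed in neurons, held 16.6, 17.2 and 12.5 FPKM in the wild type and 15.6, 12.95 and 11.6 FPKM in the knockout. It was lower in all 3 pairs, and the groups overlapped. Plagl1, a zinc finger factor that acts on other imprinted genes, held 11.01, 8.92 and 9.15 FPKM in the wild type and 11.5, 8.62 and 11.5 FPKM in the knockout. Cdkn1c, a cell cycle inhibitor, averaged 4.62 ± 0.96 and 5.0 ± 1.1 FPKM (SD, n = 3 each). Its knockout values were higher in each pair by 0.059 to 0.11 on the log2(FPKM + 1) scale, well within the spread of each genotype.

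Further members of the Kcnq1 cluster, and the single-gene clusters other than Gatm, also overlapped between the genotypes. Cd81, a tetraspanin gene, held 260, 258 and 215 FPKM in the wild type and 230, 249 and 150 FPKM in the knockout. Knockout library 3 was the lowest, and without it the log2 fold change of -0.25 became -0.024, against -0.38 without knockout library 2. Slc22a18, a transporter gene, ranged from 0.13 to 0.79 FPKM. Impact (chromosome 18), which restrains the stress kinase GCN2 by binding its activator GCN1, held 110, 102 and 89.5 FPKM in the wild type and 105, 80.9 and 82.3 FPKM in the knockout. It was lower in each pair, with a log2 fold change of -0.17 (SE 0.13). It was -0.11 without wild-type library 1 or knockout library 2 and -0.29 without knockout library 1. Rasgrf1, a neuronal exchange factor for Ras, held 191, 131 and 129 FPKM in the wild type and 189, 134 and 139 FPKM in the knockout. Replicate 1 was the highest in both genotypes.

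Inpp5f, a phosphoinositide phosphatase gene, held 32.6, 36.2 and 28.2 FPKM in the wild type and 30.6, 34.8 and 23.1 FPKM in the knockout. It was lowest in replicate 3 of both genotypes. Trappc9, a gene of vesicle trafficking with a maternal bias in brain, held 37.2, 33.2 and 32.3 FPKM in the wild type and 36.9, 37.0 and 35.5 FPKM in the knockout. It varied least of all members, with a coefficient of variation of 6.05% over the 6 libraries, against 53.0% for Peg10, the most variable tested member. Slc38a4, an amino acid transporter of placenta and liver, held 0.36, 0.37 and 0.27 FPKM in the wild type and 0.40, 0.28 and 0.56 FPKM in the knockout.

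By expressed allele, 16 of 20 tested paternally expressed members were lower in the knockout, 5 of 8 maternally expressed members, and 4 of 6 in the third class. The median log2 fold changes were -0.14, -0.035 and -0.19. Leaving out wild-type library 3 took the paternal median to -0.23 and the maternal one to -0.094. The paternal median was -0.068 with knockout library 3 left out, and the maternal one -0.0013 with knockout library 2 left out. The difference between the allele classes was not tested. Per library, the paternally expressed list stood at 0.067, 0.058 and -0.17 in the wild type and at 0.014, -0.18 and -0.23 in the knockout. Replicate 3 was lowest in both genotypes, so the groups overlapped. The maternally expressed list stood at 0.052, 0.077 and -0.090 in the wild type and at -0.016, -0.13 and -0.094 in the knockout, again with overlap. Knockout library 3 held the lowest value of 15 of the 34 tested members, where it held the lowest value of 25.1% of all genes tested. Wild-type library 2 held the highest value of 13 members, where it held that of 22.6% of all genes.

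A further 30 imprinted genes outside the members were in the table, and 18 of them were tested. They divided evenly, 9 lower and 9 higher. The median log2 fold change was -0.0069, and 0 passed in limma after adjustment. The 4 with the lowest unadjusted p were Zdbf2, Ampd3, Htr2a and Th. Zdbf2, which promotes feeding circuits in mice, held 4.20, 4.39 and 3.99 FPKM in the wild type and 3.53, 2.45 and 3.28 FPKM in the knockout. Ampd3, an AMP deaminase gene, held 9.25, 9.67 and 9 FPKM in the wild type and 7.72, 8.60 and 6.78 FPKM in the knockout. Both were without overlap, as was Th. These 3 of the 18 tested genes (16.7%) were lower without overlap, against 6.43% of all genes tested. On the higher side 0 were without overlap, against 5.48%. Th, the dopamine synthesis enzyme gene, held 8.41, 9.37 and 7.44 FPKM in the wild type and 6.94, 6.03 and 0.45 FPKM in the knockout. The serotonin receptor gene Htr2a averaged 3.79 ± 0.61 and 5.06 ± 1.2 FPKM (SD, n = 3 each), with overlap. Monoaminergic markers were low in the knockout library where Th was lowest, at -1.30 against -0.79 to 0.25 in the others, and their part in the Th values was not tested.

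Of 27 listed factors that set or keep imprints or, like the Tet genes, oxidise methylcytosine, 22 were tested and 15 were higher in the knockout. The median log2 fold change was 0.061, and 0 passed in limma after adjustment. Without overlap on the higher side were 5 of the 22 (22.7%), Tet2 and Tet3 among them, against the 5.48% of all genes given above. Trim28, the co-repressor recruited by KRAB zinc finger proteins, held 36.2, 36.9 and 30.9 FPKM in the wild type and 42.2, 42.9 and 39.2 FPKM in the knockout. Its log2 fold change was 0.25 (SE 0.097), and the unadjusted limma p was 0.0322 with an adjusted p of 0.79. Tet2, which oxidises methylcytosine, held 5.75, 4.32 and 5.75 FPKM in the wild type and 7.85, 5.96 and 7.85 FPKM in the knockout. Zfp445 averaged 24.6 ± 2.9 and 28.3 ± 1.4 FPKM with overlap, and the histone methyltransferase gene Ehmt1 averaged 8.58 ± 0.66 and 9.87 ± 0.77 FPKM without overlap (SD, n = 3 each). Methylation at the control regions was not measured here.

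**Figure D5:**
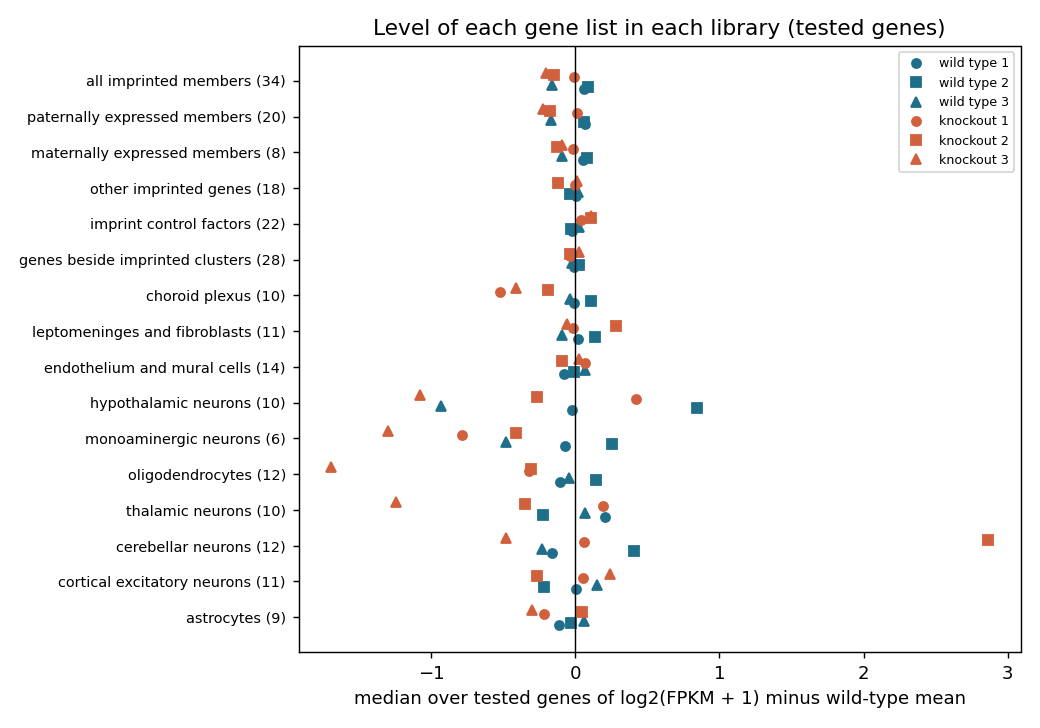
Level of each gene list in each library, as the median over its tested genes (number in brackets) of log2(FPKM + 1) minus the wild-type mean, with 3 libraries a genotype. Imprinted members lie within -0.20 to 0.084, while hypothalamic markers range from -1.08 to 0.85 and cerebellar markers reach 2.86 in knockout library 2.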

How the data were processed

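Messenger RNA of 6 brain samples was captured on oligo(dT) beads, per the labels' protocols. Each sample has a column of FPKM values in the deposited table, as its header names them. Bowtie2, RSEM and the mm10 build are named by the submitters' processing notes. The sources used here give no version, annotation release, strand setting or filter. Where a fragment matches several genes RSEM estimates its split, so genes with shared sequence carry uncertain values. FPKM holds no read totals and whole reads were not recovered, so depth is unknown, no count model was run, and no counting interval is given.

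Members were matched by symbol, and groups came from the genotype labels. The members and lists were chosen with earlier results of these data known. A linear model in limma 3.58.1 (R 4.3.3), moderated by eBayes with a trend and a robust prior, was fitted to log2(FPKM + 1). It covered the 12885 genes that averaged 1 FPKM or more and was 2-sided. An adjusted p (Benjamini-Hochberg, over all of them) under 0.05 was called. Differences of low genes come out too small on this scale. Exact permutation tests used SciPy 1.17.1. Coordinates and start windows are from RefSeq on GRCm38, the assembly that mm10 names, and 50-base windows shared between genes were counted in protein-coding transcripts of GENCODE M21.

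Both genotypes carry the replicate numbers 1 to 3 in the titles. Deviations from the group means correlated across genes by 0.485, 0.413 and 0.539 in same-numbered pairs, and the numbers were read as pairs, on evidence from the data and not from the labels. Values in every library are given for Mettl5, the 12 tested members of lowest p, the most abundant member of each cluster and products of overlapping pairs, and for Igf2, Igf2r and Ube3a. Members outside that rule are given by their range or mean, apart from Phlda2 and from genes said to have been picked after their values were seen. Protein sequences were not compared. From the other lists up to 4 genes of lowest p are named. Of 33 genes listed beside the clusters, the 29 within 5 Mb of a member were kept. Alternatives were other pseudocounts, filters and scalings, the replicate block and each library left out.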

Additional observations from a re-analysis of the deposited data

How the results depend on the processing

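Across the 13 alternatives, 0 of the 34 tested members passed an adjusted p of 0.05 in limma (lowest 0.285, with the replicate block), and 21 members kept their direction in all alternatives that tested them (Zim1 was not tested at a mean of at least 5 FPKM). The medians over all members, paternally expressed members and maternally expressed members did not change sign. The third class was not run under the alternatives. The count of genes called was 0, and 1 in 2 alternatives. Without a filter on low values it was 1, Hist2h2aa2, and without wild-type replicate 3 it was 1, Rps27rt. Neither is a member, and both were named after their values were seen. Leaving out 1 library at a time gave 0 to 1 genes called. With scaling to a common sum H13 had a log2 fold change of 0.0017. With 1 library left out, direction turned for 13 members with small differences. Their ranges were -0.41 to 0.022 for Magel2, -0.071 to 0.17 for Ube3a, -0.093 to 0.023 for Peg3, -0.42 to 0.03 for Nnat, -0.13 to 0.0099 for Blcap, -0.19 to 0.00028 for Rtl1, -0.14 to 0.12 for Igf2, -0.054 to 0.25 for Cdkn1c, -0.1 to 0.018 for Zrsr1, -0.12 to 0.22 for Rasgrf1, -0.27 to 0.019 for Inpp5f, -0.078 to 0.05 for H13 and -0.19 to 0.1 for Mcts2. The cause was not tested. The median over maternally expressed members was -0.0013 without knockout replicate 2 and -0.094 without wild-type replicate 3, and -0.0074 with scaling to a common sum. The replicate block (lowest adjusted p 0.285 over all genes) changed no call and raised the members at an unadjusted p under 0.05 from 3 to 8. Depth is unknown, so differences of low members such as Phlda2 cannot be set against counting error.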

Other observations

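Genes that lie beside the imprinted clusters were examined for the same shift. Of 28 tested genes listed beside the clusters, 15 were lower and 13 higher. Their median log2 fold change was -0.040, and 0 passed in limma after adjustment. All 218 genes of the table within 0.5 Mb of a member, other than imprinted genes, gave 136 tested genes, 77 lower and 59 higher, with a median of -0.034. Of these, 8 were lower at an unadjusted limma p under 0.05 (5.88%, against 3.69% of all genes tested). On the higher side there were 2, where all genes tested gave 2.37%. This second list was added after the data were seen. Lowest in p among the 28 was Acat2, an enzyme gene of acetyl-CoA metabolism beside Igf2r, with 15.3, 20.3 and 14.03 FPKM in the wild type and 12.1, 12.3 and 13.8 FPKM in the knockout, without overlap.

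Parent genes of the retrogenes and a relative of Snrpn, picked after their values were seen, overlapped between the genotypes. Mcts1, from which Mcts2 derives, held 27.1, 24.5 and 24.9 FPKM in the wild type and 28.1, 23.1 and 24.7 FPKM in the knockout, above Mcts2 in every library. Zrsr2, the relative of Zrsr1, held 10.8, 10.6 and 10.7 FPKM in the wild type and 10.99, 9.86 and 10.96 FPKM in the knockout, below Zrsr1 in every library. Snrpb, which encodes the widely expressed counterpart of the Snrpn protein, held 37.7, 31.6 and 25.3 FPKM in the wild type and 41.7, 41.2 and 30.4 FPKM in the knockout. Neither Mcts2 nor Zrsr1 shared any 50-base window with its parent gene in GENCODE M21.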
